A study of Homo sapiens with 24 samples.

Results

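FOXA1, HOXB13, GATA2, GRHL2, SPDEF, ETV1, KLF5 and SOX9 are transcription factors that work around the androgen receptor in prostate epithelium, or that mark other epithelial states of the prostate. These 8 genes were chosen by name from the 60675 genes counted in 24 RNA-seq libraries, across both cell lines, both siRNA pools and both treatments. The libraries came from LNCaP:C4-2 (LNCaP:C42 in the sample labels), a castrate-resistant prostate cancer line that still responds to the antagonist enzalutamide, and from 22Rv1, which is resistant to it. Each line was grown in phenol red-free medium with charcoal-stripped serum and was transfected with pooled siRNAs to METTL3, the methyltransferase that writes m6A on RNA (siMETTL3), or with control siRNAs that have no target (siSCR). A second transfection followed at 48 h, with ethanol as vehicle or the synthetic androgen R1881 (1 nM) added for 72 h. This gave 8 conditions of 3 libraries each. Each line is a single established line, the siRNAs of a pool act together, and the labels do not say whether the 3 libraries of a condition came from separate cultures. The p-values therefore measure the spread between these libraries, which may be technical.

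Androgen binding sends the androgen receptor to enhancers that other factors have already opened or marked. FOXA1 is a forkhead pioneer factor that opens such chromatin, GATA2 acts at many of the same enhancers, and HOXB13 is a homeobox factor that gives the prostate its posterior identity and redirects receptor binding. GRHL2 is a grainyhead factor that keeps the epithelial programme active, and SPDEF is an ETS factor of luminal secretory cells. ETV1 is an ETS factor of the PEA3 group that is raised by rearrangement in some prostate cancers, KLF5 is a Krüppel-like factor of basal and progenitor epithelium, and SOX9 is a factor of prostate budding and of basal progenitors.

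On GRCh38, FOXA1 lies on chromosome 14 from 37589984 to 37596059 and HOXB13 on chromosome 17 from 48724763 to 48729178, both on the minus strand. GATA2 (chromosome 3, 128479427 to 128493185), SPDEF (chromosome 6, 34537802 to 34556333) and ETV1 (chromosome 7, 13891228 to 13991425) are also on the minus strand. KLF5 (chromosome 13, 73054976 to 73077542), SOX9 (chromosome 17, 72121020 to 72126420) and GRHL2 are on the plus strand. Counts were summed over all annotated exons of a gene, UTRs included, without use of strand. FOXA1 shares 16 bases of exon with TTC6 on the other strand and GRHL2 shares 50 with an unnamed gene, and the remaining 6 genes share none.

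The promoters of 5 of the 8 genes were taken from the RefSeq promoter table (build GRCh38.p14). That of GRHL2 was not looked up, and HOXB13 and SOX9 had no entry. The promoters of SPDEF and KLF5, which rose with R1881 in LNCaP:C4-2, and of GATA2, which fell there, are shown as the 250 bases before the start site in the direction of transcription. They are chr6:34556330-34556579 (minus strand), chr13:73054726-73054975 (plus strand) and chr3:128493202-128493451 (minus strand), and capitals mark matches to the motifs searched.
SPDEF: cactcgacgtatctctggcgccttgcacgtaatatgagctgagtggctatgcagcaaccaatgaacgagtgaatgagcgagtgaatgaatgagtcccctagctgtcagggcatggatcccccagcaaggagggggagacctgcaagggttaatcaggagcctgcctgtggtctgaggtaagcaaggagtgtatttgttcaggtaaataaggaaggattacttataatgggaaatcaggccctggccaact
KLF5: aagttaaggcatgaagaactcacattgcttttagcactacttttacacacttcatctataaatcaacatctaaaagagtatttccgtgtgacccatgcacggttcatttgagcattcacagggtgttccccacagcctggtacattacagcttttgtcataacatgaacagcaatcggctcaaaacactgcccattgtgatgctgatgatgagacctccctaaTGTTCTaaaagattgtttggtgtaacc
GATA2: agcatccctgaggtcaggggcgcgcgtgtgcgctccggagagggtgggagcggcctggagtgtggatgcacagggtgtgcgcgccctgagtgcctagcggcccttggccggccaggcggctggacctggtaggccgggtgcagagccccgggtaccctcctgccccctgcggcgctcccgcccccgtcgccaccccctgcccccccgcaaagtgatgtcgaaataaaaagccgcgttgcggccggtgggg
Matches to 5 short motifs were searched on both strands, and the share of the 35116 promoters of the table that hold each is given for comparison. The half-site of the androgen receptor (AGAACA) was found in 12.4% of them. The forkhead motif (GTAAACA) was found in 2.98% of all promoters and the motif of the GATA family (AGATAA) in 9.17%. For HOXB13 the motif searched was CCAATAAA, which 0.863% of all promoters hold. The grainyhead motif (AACCNGTT) was present in 1.49%. For each gene 1 start site was used, the listed one nearest the annotated start of the gene. ETV1 has 6 listed start sites and KLF5 and GATA2 have 2 each, and their other sites were not searched. For FOXA1 the site used was 37595249, while the annotated start is 37596059. Among the 5 promoters searched, the only match was a half-site in KLF5. It reads TGTTCT on the printed strand, and its first base is at position -27 from the start site. The promoters of SPDEF, GATA2, FOXA1 and ETV1 held none of these letters in the 250 bases searched.

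The libraries held 15716224 to 21306019 counted fragments. At these depths a count of 3, taken as the floor, corresponds to 0.141 to 0.191 CPM, the read count scaled for library size, and the floor covers counting error only. METTL3 mRNA was lower in each set of 3 siMETTL3 libraries than in the matching siSCR libraries: in LNCaP:C4-2 it fell from 28.8 to 19.04 CPM with vehicle and from 33.4 to 22.5 CPM with R1881, and in 22Rv1 from 46.3 to 24.9 and from 50.4 to 22.4 CPM. By an exact two-sided permutation test each of these differences had p = 0.1, the smallest that 3 against 3 allows. The edgeR adjusted p was 0.0127, 0.0256, 1.483e-06 and 1.289e-08 in that order. In LNCaP:C4-2, replicate 1 of siSCR with R1881 and replicate 1 of siMETTL3 with vehicle stood apart from the others of their conditions, with a chi-square per gene of 30.4 to 41.7 against them and of 3.05 and 4.11 between the others. In addition, the deviation of genes from their mean over the line followed GC content to different degrees, with correlations across genes from -0.58 to 0.53 between libraries. Genes are not independent replicates, and this correlation was below 0 in 7 of the 12 siSCR libraries and in 2 of the 12 siMETTL3 libraries. Calls that change with a GC offset in the fit, or without the 2 libraries, are therefore given with those values. All 12 luminal markers were above 3 counts in every library of both lines, with summed levels of 2989 to 5417 CPM in LNCaP:C4-2 and 1203 to 1364 CPM in 22Rv1. The basal markers summed to 50.8 to 72.9 CPM in LNCaP:C4-2 and to 132 to 174 CPM in 22Rv1. Of the 10 basal markers, 3 were above 3 counts in every LNCaP:C4-2 library and 4 in every 22Rv1 library. KRT5 stayed at 3 counts or fewer in both lines, with TP63 in LNCaP:C4-2 and KRT14, KRT15 and COL17A1 in 22Rv1. The neuroendocrine markers summed to 46.0 to 248 CPM in LNCaP:C4-2 and to 292 to 488 CPM in 22Rv1, with NEUROD1 at 3 counts or fewer in both lines. The summed mesenchymal markers were at 91.3 to 183 CPM in LNCaP:C4-2 and at 73.6 to 136 CPM in 22Rv1. LNCaP, from which C4-2 derives, is known for a rearranged ETV1 locus with high ETV1, whereas the 12 libraries labelled LNCaP:C42 held 0 to 4 counts of ETV1 each, and the cause was not tested.

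The first question was how much of each factor the 2 lines hold. In vehicle-treated LNCaP:C4-2 with siSCR, FOXA1 and HOXB13 were the most abundant of the 8 mRNAs per length, at 151.8 ± 3.62 and 127 ± 11.02 CPM per kilobase of exon (SD, n = 3). GATA2 followed at 57.8 ± 6.73, SPDEF at 33.8 ± 1.67 and GRHL2 at 18.9 ± 0.543 CPM per kilobase. KLF5 and SOX9 were lower, at 2.84 ± 0.175 and 2.37 ± 0.153 CPM per kilobase, and ETV1 was at the floor. No 2 neighbours in this order had overlapping libraries. In 22Rv1 FOXA1 again led, at 110.2 ± 4.81 CPM per kilobase, but SPDEF came next at 88.0 ± 9.50, before HOXB13 at 24.8 ± 2.46. SOX9 (10.97 ± 1.32) and GRHL2 (10.3 ± 0.218) overlapped, as did ETV1 (8.23 ± 0.996), KLF5 (6.92 ± 0.838) and GATA2 (6.52 ± 1.49) in turn, so that the order within these groups is not set by the data. GATA2 thus held the third place in LNCaP:C4-2, and in 22Rv1 it had the lowest mean, with libraries that overlapped those of KLF5.

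**Figure D1:**
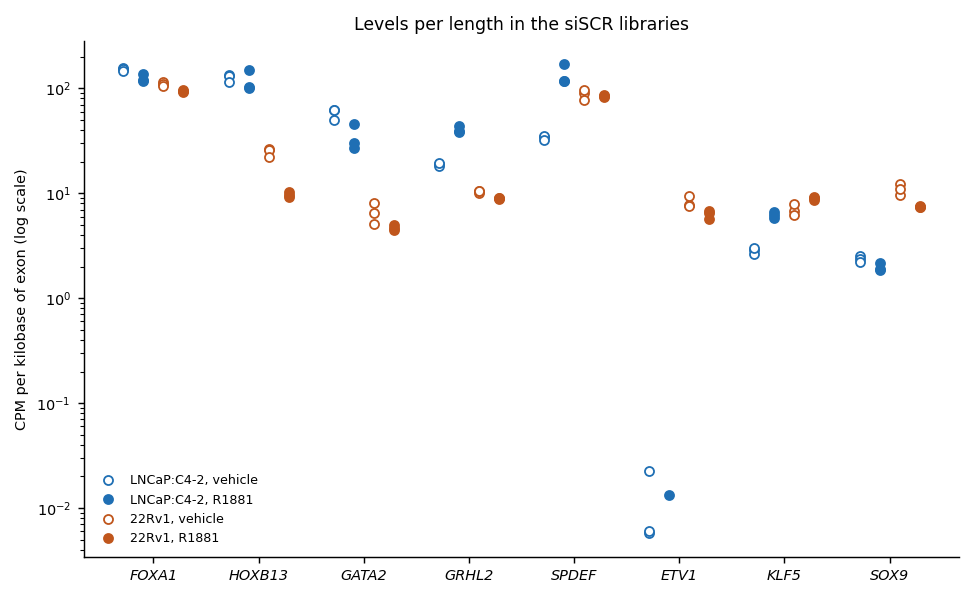
CPM per kilobase of exon (log axis) of the 8 genes in the siSCR libraries, 1 point per library, blue for LNCaP:C4-2 and orange for 22Rv1, open for vehicle and filled for R1881. Libraries with 0 counts of ETV1 are not drawn; with vehicle ETV1 averages 0.0114 in LNCaP:C4-2 and 8.23 in 22Rv1, and FOXA1 is within 94.7 to 151.8 on average in all 4 conditions.

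FOXA1 was compared between the lines first. It was at 617, 608 and 589 CPM in the vehicle-treated siSCR libraries of LNCaP:C4-2 and at 459, 437 and 421 CPM in those of 22Rv1. The groups did not overlap, and the log2 difference of 22Rv1 from LNCaP:C4-2 was -0.46 (SE 0.07; edgeR adjusted p = 1.185e-06), which is under 1.5-fold. It was -0.62 with the GC offset (adjusted p = 1.462e-11), past that threshold. With this offset the median gene was itself lower in 22Rv1, by the values given below under the dependence on processing. The same holds for the other values and counts between the lines that are given with the offset. HOXB13 was at 468, 459 and 398 CPM in LNCaP:C4-2 and at 92.1, 89.3 and 76.1 CPM in 22Rv1, a log2 difference of -2.36 (SE 0.13). GATA2 was at 276, 274 and 223 CPM against 35.8, 28.9 and 22.5 CPM, or 8.86-fold lower in 22Rv1. For GRHL2 the values were 116, 111 and 117 CPM against 61.0, 63.1 and 63.5 CPM, a log2 difference of -0.87 (SE 0.08) and of -1.16 with the GC offset. All 3 were lower in every 22Rv1 library than in any LNCaP:C4-2 library. In bulk libraries of a line, fewer cells that express a gene and less RNA per cell cannot be told apart.

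The remaining 4 genes were higher in 22Rv1 with vehicle. SPDEF was at 65.7, 67.2 and 61.1 CPM in LNCaP:C4-2 and at 173, 184 and 148 CPM in 22Rv1 (log2 difference 1.38, SE 0.13). KLF5 was at 11.3, 10.3 and 11.6 CPM against 26.4, 24 and 30.4 CPM (1.28, SE 0.13; 0.89 with the GC offset). SOX9 was at 9.94, 9.35 and 8.74 CPM against 48.4, 38.03 and 43.0 CPM (2.21, SE 0.11). ETV1 showed the widest gap: the 3 libraries of LNCaP:C4-2 held 1, 4 and 1 counts and those of 22Rv1 1419, 1371 and 1653 counts. The depth-adjusted ratio of the summed counts, 4443 against 6, was 711 with a 95% counting interval of 327 to 1939. With R1881 the sums were 3369 and 2 and the ratio 1562 (432 to 12900). Over the 12 libraries of LNCaP:C4-2 there were 15 counts of ETV1 in all, and 5 libraries held 0. In the edgeR fit of all 24 libraries, 6 of the 7 genes other than ETV1 were called between the lines with vehicle at an adjusted p under 0.05 and at least 1.5-fold, all but FOXA1. FOXA1 joined them with the GC offset. Such calls were frequent between these lines, since 59.2% of all genes tested were called, and 73.9% had an adjusted p under 0.05 at any fold, as all 7 genes did. With R1881 the count was 5 of 7, against 60.1% of all genes, and again all 7 passed at any fold, against 75.0%. With the GC offset HOXB13, GATA2, GRHL2 and SOX9 were called with R1881, and FOXA1 and SPDEF passed at any fold only. The calls over all genes with the offset are given below under the dependence on processing, and their share at any fold is not given. Without the offset SPDEF had changed sides with R1881: it was 1.60-fold lower in 22Rv1 (log2 difference -0.68, adjusted p = 2.213e-05). KLF5 was 1.45-fold higher (log2 difference 0.53), under the fold threshold. The SPDEF difference with R1881 was no longer called without the 2 libraries that stood apart (-0.52), with the GC offset (-0.37) or by library size alone (-0.47). That of KLF5 was 0.15 with the GC offset (adjusted p = 0.223), and it was called by library size alone (0.74) and with at least 10 counts in every library (0.62).

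**Figure D2:**
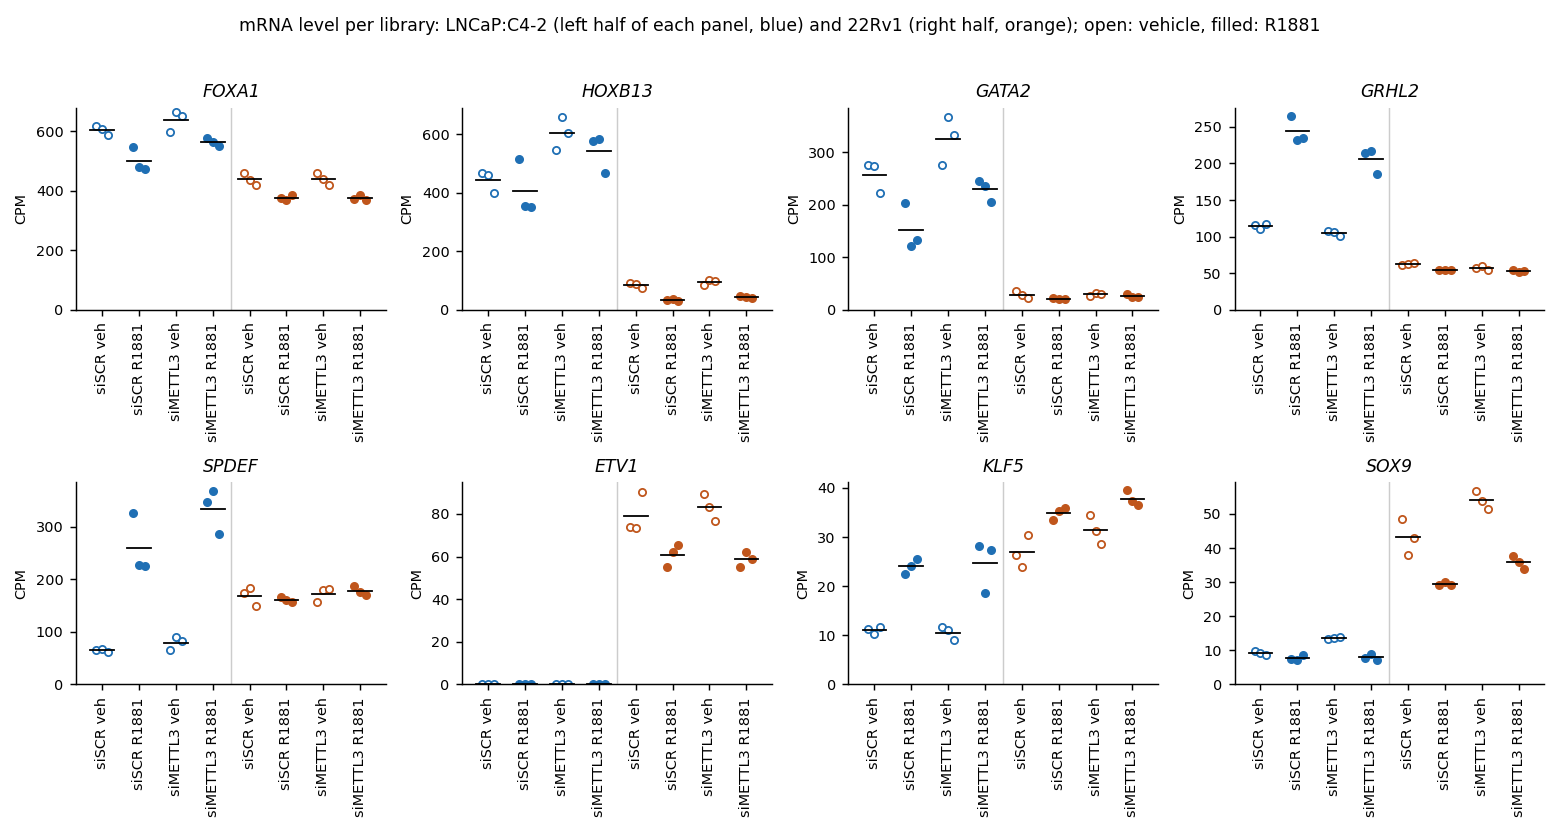
CPM of each of the 8 genes in all 24 libraries, with 1 panel per gene and 8 conditions on the horizontal axis; points are libraries (open for vehicle, filled for R1881) and black lines are means of 3. SPDEF, GRHL2 and KLF5 rise with R1881 in LNCaP:C4-2 (blue), HOXB13 falls in 22Rv1 (orange), and ETV1 is at the floor in LNCaP:C4-2.

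The next question was how the factors responded to androgen. In LNCaP:C4-2 with siSCR, SPDEF, GRHL2 and KLF5 rose and GATA2 fell with R1881, whereas FOXA1, HOXB13 and SOX9 changed by less than 1.5-fold. The 4 called genes were 4 of the 7 that passed the filter on low counts, against 15.1% of all genes tested. SPDEF went from 65.7, 67.2 and 61.1 CPM with vehicle to 325, 226 and 225 CPM with R1881. It rose 3.98-fold (log2 fold change 1.99, SE 0.15, edgeR adjusted p = 1.044e-07), and the library at 325 CPM is replicate 1, which stood apart. Without the 2 libraries the log2 fold change was 1.81. GRHL2 went from 116, 111 and 117 CPM to 265, 232 and 235 CPM, a 2.12-fold rise (1.08, SE 0.09, adjusted p = 2.465e-07). KLF5 went from 11.3, 10.3 and 11.6 CPM to 22.6, 24.1 and 25.6 CPM, or 2.16-fold higher (1.11, SE 0.16, adjusted p = 8.502e-05). For these 3 genes every R1881 library lay above every vehicle library.

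GATA2 moved the other way. Its libraries were at 276, 274 and 223 CPM with vehicle and at 202, 121 and 134 CPM with R1881, with replicate 1 again the highest of its condition. The log2 fold change was -0.77 (SE 0.16, adjusted p = 0.0026), and -1.01 without the 2 libraries. FOXA1 went from 617, 608 and 589 CPM to 547, 479 and 472 CPM. This difference of -0.28 passed the test (SE 0.08, adjusted p = 0.0174) but not the fold threshold. HOXB13 was at 468, 459 and 398 CPM with vehicle and at 516, 354 and 350 CPM with R1881, so that the groups overlapped through replicate 1 (log2 fold change -0.13, SE 0.14, adjusted p = 0.539). Without the 2 libraries it was -0.32 with an adjusted p of 0.0077, still under 1.5-fold. SOX9 was at 9.94, 9.35 and 8.74 CPM and at 7.52, 7.24 and 8.61 CPM (-0.27, SE 0.13, adjusted p = 0.161).

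Under siMETTL3 the same line gave 4 called genes of 7, against 10.6% of all genes. SPDEF went from 65.5, 89.3 and 82.0 to 348, 368 and 285 CPM (log2 fold change 2.09, SE 0.15, adjusted p = 7.533e-08). GRHL2 (0.98, SE 0.09) and KLF5 (1.24, SE 0.16) rose as well. SOX9 fell from 13.4, 13.6 and 13.9 CPM to 7.64, 8.91 and 7.20 CPM (-0.77, SE 0.13, adjusted p = 0.000632). GATA2 went from 276, 367 and 333 CPM to 245, 237 and 206 CPM, a change of -0.49 (SE 0.16, adjusted p = 0.0463) that was under 1.5-fold. It was called with the GC offset (-0.62, adjusted p = 4.684e-05) and without the 2 libraries (-0.61). With R1881 and siSCR the order of levels per length had SPDEF (135.2 ± 29.9 CPM per kilobase), FOXA1 (125 ± 10.4) and HOXB13 (117 ± 27.3) with overlapping libraries at the top, and GRHL2 (40.3 ± 3.03) next to GATA2 (34.2 ± 9.81).

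In 22Rv1 the largest response was a fall of HOXB13. With siSCR its libraries were at 92.1, 89.3 and 76.1 CPM with vehicle and at 33.3, 35.5 and 31.8 CPM with R1881. This 2.58-fold fall (log2 fold change -1.37, SE 0.10, edgeR adjusted p = 2.913e-10) was the only call among the 8 genes, against 13.8% of all genes. At an adjusted p under 0.05 with any fold the count was 7 of 8, against 33% of all genes. SOX9 went from 48.4, 38.03 and 43.0 CPM to 29.2, 29.9 and 29.3 CPM, a log2 fold change of -0.56 (SE 0.09, adjusted p = 6.058e-05) just under the threshold. GATA2 (-0.48, SE 0.14, adjusted p = 0.0096), ETV1 (-0.38, SE 0.09, adjusted p = 0.0024), FOXA1 (-0.22, SE 0.06, adjusted p = 0.0094) and GRHL2 (-0.21, SE 0.07, adjusted p = 0.031) were lower too. KLF5 went from 26.4, 24 and 30.4 CPM to 33.5, 35.2 and 35.9 CPM (0.37, SE 0.09, adjusted p = 0.0047). SPDEF was at 173, 184 and 148 CPM with vehicle and at 166, 161 and 158 CPM with R1881, which overlap (-0.07, SE 0.08, adjusted p = 0.567). With the GC offset the SPDEF value was 0.20 with an adjusted p of 0.00284, so its direction depends on that step.

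Under siMETTL3 in 22Rv1, HOXB13 went from 83.5, 103 and 98.0 CPM to 45.9, 43.9 and 40.5 CPM (log2 fold change -1.15, SE 0.09, adjusted p = 3.804e-09). SOX9 went from 56.8, 53.7 and 51.4 CPM to 37.8, 35.8 and 33.8 CPM (-0.62, SE 0.09, adjusted p = 1.432e-05). These were 2 calls among 8, against 13.5% of all genes (5 of 8 at any fold, against 33.1%), and SOX9 was under 1.5-fold with the GC offset (-0.55). ETV1 was at 89.1, 83.3 and 76.8 CPM with vehicle and at 55.2, 62.3 and 58.9 CPM with R1881 (-0.52, SE 0.09, adjusted p = 0.000117). FOXA1 (-0.25, adjusted p = 0.00439) and KLF5 (0.24, SE 0.09, adjusted p = 0.0476) passed the test under the fold threshold, while GATA2 (-0.19), GRHL2 (-0.13) and SPDEF (0.02) did not pass it. With R1881 and siSCR, GATA2 was last per length in 22Rv1 (4.71 ± 0.241 CPM per kilobase), below every ETV1 library. HOXB13 (9.66 ± 0.536) stood next to GRHL2 (8.97 ± 0.0988) and KLF5 (8.96 ± 0.318), the last 2 with overlapping libraries.

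**Figure D3:**
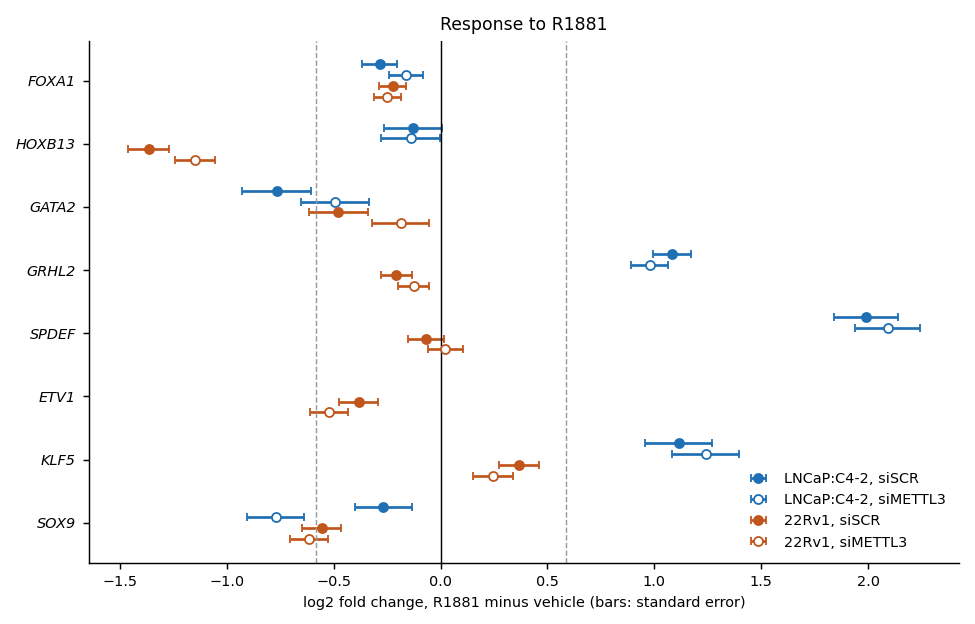
Log2 fold change of R1881 against vehicle for each gene (points, bars are standard errors) in LNCaP:C4-2 (blue) and 22Rv1 (orange) with siSCR (filled) or siMETTL3 (open); dashed lines mark 1.5-fold. SPDEF, GRHL2 and KLF5 lie near 2, 1 and 1.1 in LNCaP:C4-2, and HOXB13 lies beyond -1.1 in 22Rv1 with both siRNA pools.

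The difference between the R1881 responses of the 2 lines was tested directly in the siSCR libraries. It passed an edgeR adjusted p of 0.05 for 4 of the 7 genes other than ETV1, against 16.8% of all genes. On the log2 scale, the response in 22Rv1 minus that in LNCaP:C4-2 was -2.06 for SPDEF (SE 0.18, adjusted p = 2.286e-09) and -1.29 for GRHL2 (SE 0.11, adjusted p = 9.936e-10). It was -1.24 for HOXB13 (SE 0.18, adjusted p = 1.237e-05) and -0.75 for KLF5 (SE 0.18, adjusted p = 0.00501). GRHL2 rose in LNCaP:C4-2 and was slightly lower with R1881 in 22Rv1, KLF5 was higher with R1881 in both, and HOXB13 fell in 22Rv1. SPDEF rose in LNCaP:C4-2, and in 22Rv1 it was at -0.07, or at 0.20 with the GC offset. For FOXA1 (0.06, SE 0.10), GATA2 (0.29, SE 0.23) and SOX9 (-0.29, SE 0.15) a difference between the lines was not detected in this fit. With the GC offset GATA2 also passed (0.42, adjusted p = 0.0164), that is, its fall was smaller in 22Rv1. The luminal markers moved with R1881 in the same comparisons. With siSCR, 8 of 12 were called in LNCaP:C4-2 (7 higher, 1 lower), against 15.1% of all genes, and 4 of 12 in 22Rv1 (1 higher, 3 lower), against 13.8%. Of the basal, neuroendocrine and mesenchymal markers that passed the filter, 2 of 5, 2 of 2 and 3 of 4 were called in LNCaP:C4-2 and 1 of 4, 1 of 5 and 2 of 6 in 22Rv1. The part of these markers in the responses of the 8 genes was not tested.

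The study also asked what depletion of METTL3 does to the basal and androgen-regulated transcriptome. At an adjusted p under 0.05 and at least 1.5-fold, edgeR called 0 of the tested genes in each of the 4 comparisons of siMETTL3 with siSCR. By the same rule METTL3, the target of the siRNAs, was itself not called in LNCaP:C4-2 with R1881 (1.48-fold lower). It was called there with vehicle at 1.53-fold, so the rule can miss changes of that size. The share of all genes called was 1.2% and 0.7% in LNCaP:C4-2 with vehicle and R1881, and 0.202% and 3.29% in 22Rv1. With any fold the count at an adjusted p under 0.05 was 0 of 7 in both comparisons of LNCaP:C4-2 (1.56% and 0.937% of all genes) and 0 of 8 in vehicle-treated 22Rv1 (0.56%). At an unadjusted p under 0.05 the counts were 2 and 5 of 7 in LNCaP:C4-2 and 2 and 3 of 8 in 22Rv1, and DESeq2 called 0 in each comparison. Over all genes an unadjusted p under 0.05 was found for 2636 and 4702 of 16435 genes in LNCaP:C4-2 and for 2604 and 5712 of 17865 in 22Rv1. The values of some genes lay apart nevertheless. SOX9 in vehicle-treated LNCaP:C4-2 was at 9.94, 9.35 and 8.74 CPM with siSCR and at 13.4, 13.6 and 13.9 CPM with siMETTL3. These libraries do not overlap, and the log2 fold change was 0.53 (SE 0.13, adjusted p = 0.0552) and 0.52 with the GC offset (adjusted p = 0.0162), under 1.5-fold in both. In vehicle-treated 22Rv1 SOX9 was at 48.4, 38.03 and 43.0 CPM and at 56.8, 53.7 and 51.4 CPM (0.32, SE 0.09, adjusted p = 0.108), and with R1881 at 29.2, 29.9 and 29.3 CPM and at 37.8, 35.8 and 33.8 CPM (0.26, SE 0.09, adjusted p = 0.0527). With R1881 in LNCaP:C4-2 the siRNA pools overlapped for SOX9 (0.03, SE 0.13).

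HOXB13 in vehicle-treated LNCaP:C4-2 was at 468, 459 and 398 CPM with siSCR and at 545, 658 and 604 CPM with siMETTL3, with no overlap (log2 fold change 0.43, SE 0.14, adjusted p = 0.127). With R1881 it was at 516, 354 and 350 CPM and at 577, 584 and 466 CPM, which overlap (0.42, SE 0.14, adjusted p = 0.0881). In 22Rv1 with R1881 it was at 33.3, 35.5 and 31.8 CPM with siSCR and at 45.9, 43.9 and 40.5 CPM with siMETTL3. That difference of 0.36 passed the test (SE 0.10, adjusted p = 0.0179) under the fold threshold, as 1 of 8 genes against 16.2% of all genes. GATA2 in LNCaP:C4-2 with R1881 was at 202, 121 and 134 CPM with siSCR and at 245, 237 and 206 CPM with siMETTL3. No libraries overlapped, and the log2 fold change was 0.59 (SE 0.16, adjusted p = 0.0663). FOXA1, at 597 to 664 CPM against 589 to 617 CPM with vehicle in LNCaP:C4-2, GRHL2, KLF5 and ETV1 had values between -0.24 and 0.22 in all comparisons in which they were tested.

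Both library properties moved the values of HOXB13, GATA2 and SPDEF in LNCaP:C4-2 with R1881, in opposite directions. Without the 2 libraries that stood apart, HOXB13 (0.61, SE 0.09, adjusted p = 5.44e-05) and GATA2 (0.83, SE 0.09, adjusted p = 6.694e-06) were called in LNCaP:C4-2 with R1881. FOXA1 (0.23), GRHL2 (-0.20) and SPDEF (0.55) also had an adjusted p under 0.05, below the fold threshold. In the vehicle comparison HOXB13 (0.50), GATA2 (0.43), SPDEF (0.39) and SOX9 (0.55) had one and 0 were called. In these fits 1900 of 16780 genes were called with R1881 and 702 with vehicle, against 115 and 197 of 16435 with all libraries. The share of all genes with an adjusted p under 0.05 at any fold in these fits is not given. Among the libraries kept with R1881, the GC correlation was -0.58 and -0.57 with siSCR and 0.35 to 0.51 with siMETTL3. Among those kept with vehicle it was -0.38 to 0.09 with siSCR and 0.43 to 0.45 with siMETTL3. The part of GC content in these calls was not tested. With the GC offset and all libraries, HOXB13 (0.18) and GATA2 (0.26, adjusted p = 0.136) in LNCaP:C4-2 with R1881 did not pass the test, SPDEF went from 0.37 to -0.07, and 0 genes were called in any of the 4 comparisons. At an adjusted p under 0.05 with any fold, HOXB13 (0.35) and SOX9 (0.52) passed with the offset in LNCaP:C4-2 with vehicle. None of the 7 genes tested passed there with R1881. In 22Rv1 SOX9 (0.30) passed with vehicle, and HOXB13 (0.21), SOX9 (0.23) and SPDEF (-0.16) passed with R1881. The share of all genes at any fold with the offset is not given. GC content is highest in SPDEF (64.5% of exon bases), GATA2 (61.0%) and HOXB13 (57.3%) among the 8 genes. SOX9 is at 51.0%, and its values without and with the offset were 0.53 and 0.52 in LNCaP:C4-2 and 0.32 and 0.30 in 22Rv1 with vehicle. With R1881 they were 0.03 and -0.04 in LNCaP:C4-2 and 0.26 and 0.23 in 22Rv1. Whether the GC content of a gene accounts for how far its value moved was not tested.

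**Figure D4:**
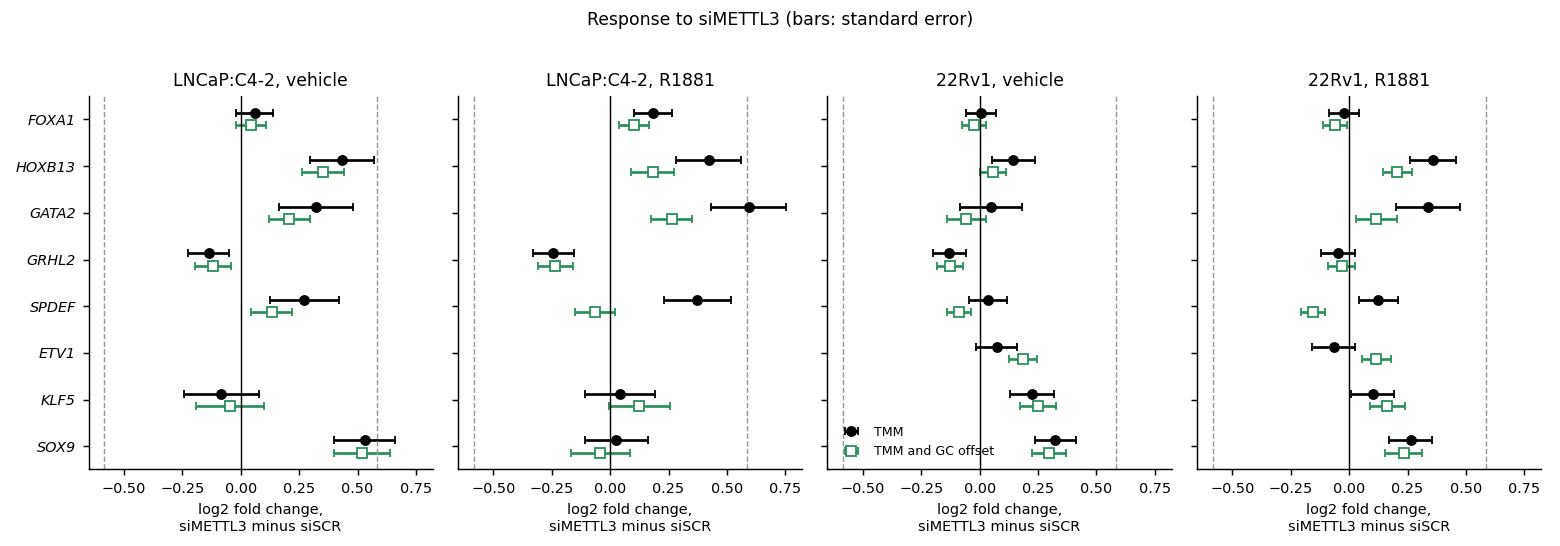
Log2 fold change of siMETTL3 against siSCR (points, bars are standard errors) in the 4 combinations of line and treatment, with TMM scaling alone (black) and with a GC offset added (green); dashed lines mark 1.5-fold. GATA2 in LNCaP:C4-2 with R1881 moves from 0.59 to 0.26 and SPDEF from 0.37 to -0.07, while SOX9 with vehicle stays at 0.53 and 0.52.

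Whether METTL3 depletion changed the response to R1881 was tested as an interaction. It was called for 0 of 7 genes in LNCaP:C4-2 and 0 of 8 in 22Rv1 at an edgeR adjusted p under 0.05, against 0.0% and 0.0168% of all genes. At an unadjusted p under 0.05 the counts were 1 and 0, beside 2037 of 16435 and 1101 of 17865 over all genes, and DESeq2 called 0 in both lines. The 1 gene was SOX9 in LNCaP:C4-2, which fell by 0.27 with siSCR and by 0.77 with siMETTL3. The interaction was -0.50 (SE 0.19, adjusted p = 0.362). For SPDEF it was 0.10 (SE 0.21), for GRHL2 -0.11 (SE 0.12) and for KLF5 0.13 (SE 0.22) in LNCaP:C4-2, and for HOXB13 in 22Rv1 0.22 (SE 0.13). The effect of siMETTL3 did not differ detectably between the lines either: 0 genes passed with vehicle or R1881, against 0.458% and 0.0926% of all genes, and 0 at an unadjusted p under 0.05 or by DESeq2.

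The pattern of each gene over the 24 libraries, after the mean of its line was subtracted from log2 CPM, was set beside those of all genes with at least 1 CPM. These correlations describe libraries that share treatments, depth and GC content. GRHL2 was most like GSR (r = 0.983) and FECH (0.975), SPDEF most like CAMKK2 (0.979) and TSKU (0.978), and KLF5 most like HPGD (0.955) and HMGXB3 (0.953). FOXA1 was most like SMAD7 (0.944) and TLE3 (0.939), HOXB13 most like DMTN (0.972) and ZNF467 (0.970), GATA2 most like NAT8L (0.953) and PTMS (0.951), and SOX9 most like SDC4 (0.904) and TLE3 (0.872). The GC content of DMTN, ZNF467, NAT8L and PTMS was 62.8%, 66.2%, 64.2% and 63.2%, beside 57.3% for HOXB13 and 61.0% for GATA2. CAMKK2 and TSKU were at 53.8% and 58.9%, beside 64.5% for SPDEF. GSR and FECH were at 47.8% and 43.7% (GRHL2 48.6%), and HPGD and HMGXB3 at 38.9% and 55.9% (KLF5 46.3%). SMAD7 and TLE3 were at 55.4% and 57.9% (FOXA1 51.5%), and SDC4 at 48.8% (SOX9 51.0%). The part of GC content in these correlations was not tested. Among the 8 genes, GRHL2 and SPDEF went together most closely (0.910), followed by FOXA1 and GATA2 (0.851), SPDEF and KLF5 (0.849) and GRHL2 and KLF5 (0.819), whereas FOXA1 and KLF5 ran in opposite directions (-0.72).

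Some relatives of these factors in the same gene families were called with R1881. In LNCaP:C4-2 with siSCR, 8 of 25 tested relatives were called (4 higher, 4 lower), against 15.1% of all genes, and their median log2 fold change was 0.04 against -0.03 over all genes. The ETS factor ELK4 went from 100.5 ± 8.12 to 217 ± 10.7 CPM (log2 fold change 1.10), HOXC13 from 27.6 ± 0.578 to 12.99 ± 1.44 CPM (-1.10), and GATA6 from 13.02 ± 0.125 to 6.02 ± 0.330 CPM (-1.12). In 22Rv1 10 of 25 were called (5 higher, 5 lower), against 13.8% of all genes, with a median of 0.06. There HOXA13 fell with HOXB13, from 13.7 ± 0.910 to 1.11 ± 0.410 CPM (-3.63), GATA3 from 131 ± 11.99 to 30.1 ± 1.74 CPM (-2.13) and FOXA3 from 5.93 ± 0.965 to 1.54 ± 0.244 CPM (-1.95). Between the lines GATA3 ran opposite to its relative GATA2. It was at 0.375 ± 0.228 CPM in vehicle-treated LNCaP:C4-2 and at 131 ± 11.99 CPM in 22Rv1, where GATA2 was low. SOX2 and FOXA3 had 0 counts in the vehicle-treated siSCR libraries of LNCaP:C4-2. Of the relatives tested, 23 of 28 were called between the lines with vehicle (59.2% of all genes), and 12 of 28 in the difference of the R1881 response (16.8% of all genes). With siMETTL3 there was 1 call among 25 in LNCaP:C4-2 with R1881, KLF2 (2.15 ± 0.295 to 4.90 ± 0.705 CPM, 1.19), and 0 in the other 3 comparisons.

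Other DNA-binding partners of the receptor gave 8 calls of 24 with R1881 in LNCaP:C4-2 (5 higher, 3 lower), against 15.1% of all genes. RUNX1 went from 5.54 ± 0.728 to 50.9 ± 4.73 CPM (log2 fold change 3.19) and the nuclear receptor NR2F1 from 99.4 ± 9.89 to 7.20 ± 0.940 CPM (-3.80). In 22Rv1 there were 7 calls of 27 (2 higher, 5 lower), against 13.8% of all genes, among them THRB (1.65) and PBX2 (-0.68). Of 30 coregulators 4 were called in LNCaP:C4-2 (13.3%) and 1 in 22Rv1 (3.33%), shares that are below those of all genes (15.1% and 13.8%). The corepressor TLE3 was called in both lines, from 293 ± 19.5 to 174 ± 24.6 CPM in LNCaP:C4-2 (-0.76) and from 160.5 ± 16.3 to 94.9 ± 4.19 CPM in 22Rv1 (-0.77). PIAS1 (1.66) and NCOA1 (0.85) rose in LNCaP:C4-2. With siMETTL3 the partners gave 1 call, RUNX1 in LNCaP:C4-2 with R1881 (-0.63), and the coregulators 0 in the 4 comparisons.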

How the data were processed

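RNA-seq was performed on 24 libraries. Per the labels and the study's methods, the authors trimmed reads with Trim Galore (FastQC, cutadapt), mapped them with STAR (GRCh38) and ran featureCounts 1.5.0-p1 with the Ensembl 83 annotation. What was deposited is a raw count for each gene, without normalization and with no strand option in the file headers. Reads on several genes or places were left out by the tool's defaults. No row without a gene was present.

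Counts were analysed with edgeR 4.0.16 in R 4.3.3 (glmQLFit, glmQLFTest) with TMM scaling, filterByExpr (minimum count 10, minimum total 15) and Benjamini-Hochberg adjustment over all genes tested. Each line's 12 libraries entered 1 fit with the 4 conditions as groups (8 residual degrees of freedom), and all 24 for comparisons between lines (16). Genes were called at an adjusted p under 0.05 and at least 1.5-fold (log2 0.585); interactions and differences of effects needed the adjusted p alone. SE is the absolute log2 fold change over the square root of F. CPM use TMM over the 24 libraries. METTL3 was also tested by an exact permutation test. Of the 60675 genes, 56558 were named from the annotation table. Replicate numbers come from the labels, which give no pairing. Across conditions, same-numbered libraries had correlations of -0.263 to 0.130 (mean -0.0127) in LNCaP:C4-2 and -0.175 to 0.113 (mean -0.00739) in 22Rv1 over 18 pairs each, so the fits are unpaired.

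The 8 genes, the gene lists and the markers were chosen with earlier results of these data known. Named besides the 8 genes were METTL3, up to 3 called genes per list and comparison with at least 1 CPM, the nearest expressed gene on each side, and the 2 genes most alike; ETV1 has no such pair given, since its counts in LNCaP:C4-2 are at the floor. Genes named outside this rule are marked, and some genes that it names are not reported here. On simulated counts, 200 genes changed by 1 log2 unit were recovered at 81% (siMETTL3, LNCaP:C4-2, vehicle), 88% (22Rv1, vehicle) and 86.5% (between lines, vehicle), with 16122, 17527 and 18423 genes. Alternatives were DESeq2 1.42.0, RLE factors, library size alone, no filter, a minimum of 10 counts per library, the replicate block, only the 6 libraries compared, and leaving out each library. The GC offset (spline, 5 degrees of freedom per library) and the fit without 2 libraries were added after seeing the data. Tables were made in Python 3.11.15 with pandas 2.3.3, numpy 2.4.6 and scipy 1.17.1, and figures with matplotlib 3.10.9.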

Additional observations from a re-analysis of the deposited data

Results flagged for a closer look

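The response to R1881 differed between the lines for 4 genes in a direct test of the difference, in the siSCR libraries. On the log2 scale, 22Rv1 minus LNCaP:C4-2, the values were -2.06 for SPDEF, -1.29 for GRHL2, -1.24 for HOXB13 and -0.75 for KLF5. Each kept its direction and its call when any 1 of the 12 libraries was left out, with ranges of -2.21 to -1.94, -1.38 to -1.29, -1.39 to -1.11 and -0.86 to -0.72. With the GC offset the values were -1.93, -1.28, -1.14 and -0.74. In the same contrast of R1881 responses 8 of 12 luminal markers were called, against 16.8% of all genes. In all 8 the log2 response was lower in 22Rv1 than in LNCaP:C4-2, which is not a statement on their levels.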

How the results depend on the processing

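Of the calls among the 8 genes, those of SPDEF, GRHL2 and KLF5 with R1881 in LNCaP:C4-2 held under all alternatives run. So did those of HOXB13 with R1881 in 22Rv1 and of the 4 differences between lines in the R1881 response. With R1881 in LNCaP:C4-2, the calls of GATA2 with siSCR and of SOX9 with siMETTL3 held as well. Between the lines, those of HOXB13, GATA2, GRHL2 and SOX9 held with both treatments, and those of SPDEF and KLF5 with vehicle. The replicate block changed no call (4 and 4 genes called with R1881 in LNCaP:C4-2, 1 and 2 in 22Rv1, 0 with siMETTL3), and same-numbered libraries did not deviate together. Over all genes, siMETTL3 calls in LNCaP:C4-2 with R1881 numbered 115, 39 with the block, 477 by DESeq2, 64 with the GC offset, 776 with no filter and 520 from the 6 libraries compared. They were 1497 without siSCR R1881 replicate 1, 1 to 54 without another library, and 1900 without the 2 libraries. With vehicle they numbered 197, 344 by DESeq2, 412 with the offset, 464 with no filter, 112 from 6 libraries, 339 without siMETTL3 vehicle replicate 1, 0 to 200 without another library, and 702 without the 2. In 22Rv1 with vehicle they numbered 36, 87 with no filter, 14 from 6 libraries and 15 to 228 without 1 library, and with R1881 587, or 309 without siMETTL3 R1881 replicate 1 and 349 without siSCR R1881 replicate 2. Interactions passed for 0 genes in LNCaP:C4-2, 55 by DESeq2, 351 with no filter, 4 with the offset and 220 without the 2 libraries, and in 22Rv1 for 3, 79 with no filter, 7 with the offset and 30 without siSCR vehicle replicate 3. Line differences of the siMETTL3 effect passed for 89 genes with vehicle and 18 with R1881, for 327 and 98 by DESeq2, 300 and 73 with no filter and 643 and 67 with the offset. Line differences of the R1881 effect passed for 3266, and 5013 with the offset. With at least 10 counts in every library, 6371 and 6641 genes were called between lines, with fewer genes tested, against 11497 and 11689. By library size alone the median gene moved by -0.15 with R1881 in LNCaP:C4-2 with siSCR, and between lines by 0.18 with vehicle and 0.29 with R1881 (-0.28 and -0.19 with the GC offset), against 0.03 and 0.09 with TMM. The split of calls between lines with vehicle was 6065 higher and 5432 lower with TMM and 4853 higher and 7177 lower with the GC offset, and with R1881 6341 and 5348 with TMM and 5170 and 6725. For R1881 in LNCaP:C4-2 with siSCR it was 1215 higher and 1269 lower, and 926 and 1800 by library size alone.

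Values that changed side or sign follow, beside those given with the results above, and the cause was not tested. METTL3 in LNCaP:C4-2 with vehicle was -0.56 with the GC offset, under 1.5-fold, and -0.61 with an adjusted p of 0.054 from only the 6 libraries compared; leaving out 1 library gave -0.66 to -0.55 with an adjusted p of up to 0.0982, no longer called in 4 of 6 fits, and with R1881 -0.65 to -0.52 with an adjusted p of up to 0.162. Leaving out 1 library gave 0 to 2 genes called with siMETTL3 and R1881 in LNCaP:C4-2 (2 without siSCR R1881 replicate 1, 0.61 for HOXB13 and 0.83 for GATA2), 1 to 2 with R1881 in 22Rv1 with siSCR (SOX9 without vehicle replicate 2, GATA2 without vehicle replicate 3) and 1 to 2 with siMETTL3. For siMETTL3 with R1881 in LNCaP:C4-2, 1 gene was called with no filter (GATA2, 0.59). With R1881 in 22Rv1, library size alone called 2 with siSCR (SOX9, -0.62), and the GC offset called 1 with siMETTL3. With the GC offset, siMETTL3 values turned to -0.065 (SPDEF) and -0.042 (SOX9) in LNCaP:C4-2 with R1881, to -0.024 (FOXA1), -0.057 (GATA2) and -0.090 (SPDEF) in 22Rv1 with vehicle, and to -0.16 (SPDEF) and 0.12 (ETV1) in 22Rv1 with R1881, and SPDEF with R1881 in 22Rv1 and siSCR to 0.20. SPDEF with R1881 in 22Rv1 and siMETTL3 was -0.039 by library size alone. FOXA1 with siMETTL3 in 22Rv1 with R1881 was 0.019 with no filter and 0.0015 from 6 libraries.

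Leaving out 1 library turned small siMETTL3 values in LNCaP:C4-2 for KLF5 (-0.15 to 0.020 with vehicle, -0.062 to 0.20 with R1881) and SOX9 (-0.076 to 0.10 with R1881). In 22Rv1 it did so for FOXA1 (-0.032 to 0.048 with vehicle, -0.037 to 0.0032 with R1881), GATA2 (-0.11 to 0.24) and SPDEF (-0.054 to 0.11) with vehicle, and for SPDEF with R1881 (-0.16 to 0.0020 with siSCR, -0.049 to 0.062 with siMETTL3). Without the 2 libraries KLF5 and SOX9 with siMETTL3 and R1881 in LNCaP:C4-2 were both -0.022. Depth limits ETV1 in LNCaP:C4-2, where no change could be seen.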

Other observations

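Genes next to the 8 factors did not all move with them. TTC6, which overlaps the 5' end of FOXA1 on the other strand, went from 93.9 ± 2.77 to 195 ± 15.3 CPM with R1881 in LNCaP:C4-2 with siSCR (log2 fold change 1.05, edgeR adjusted p = 8.922e-05), while FOXA1 was at -0.28. GATA2-AS1, which overlaps the span of GATA2 but none of its exons, fell with it, from 93.0 ± 9.81 to 50.3 ± 6.64 CPM (-0.90, adjusted p = 0.000464), and without strand the reads of such pairs cannot be told apart where they overlap. PACSIN1, 2571 bases from SPDEF, went from 31.2 ± 1.48 to 49.0 ± 13.9 CPM (0.64, adjusted p = 0.00997). Between the lines, DGKB beside ETV1 was at 16.7 ± 2.19 CPM in vehicle-treated LNCaP:C4-2, where ETV1 was at the floor, and at 0.108 ± 0.0937 CPM in 22Rv1, where ETV1 was at 79.2 CPM. PIBF1 and KLF12, on either side of KLF5, were at 3.57 ± 0.116 and 0.539 ± 0.154 CPM in LNCaP:C4-2 and at 28.6 ± 5.76 and 6.30 ± 1.03 CPM in 22Rv1, the direction in which KLF5 differed. SOX9-AS1 was at 6.32 ± 1.40 CPM in 22Rv1 and at 0 in LNCaP:C4-2.

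The Krüppel-like relatives KLF4, KLF6 and KLF9, named after their values were seen, were called with R1881 in 22Rv1 with siSCR. Of all 25 tested relatives of the 8 factors, 10 were called there (5 higher, 5 lower), against 13.8% of all genes. KLF4 went from 39.5 ± 4.87 to 85.9 ± 7.998 CPM (1.11), KLF6 from 33.5 ± 0.880 to 79.8 ± 1.74 CPM (1.25) and KLF9 from 28.7 ± 0.645 to 74.3 ± 4.07 CPM (1.37). In LNCaP:C4-2 the log2 fold changes of these 3 genes were 0.72 (called), 0.51 and 0.40, and KLF5, which rose there, was at 0.37 in 22Rv1.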
